A study of Homo sapiens with 21 samples.

Results

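The 3 RNA-Seq libraries labelled shARID1A.2 were compared with the 3 control libraries, out of 21 libraries in all. They were chosen by the name of their columns in the deposited table, with every gene included. All 21 libraries came from SK-N-BE(2), an established human neuroblastoma cell line with amplified MYCN and without functional p53, at 72 h after lentiviral transduction. The 7 labelled conditions, each with 3 libraries, were a non-silencing control, shARID1A.2 and shARID1A.4 (labelled as ARID1A silencing), shARID1B.2 and shARID1B.3 (labelled as ARID1B silencing), and the combinations shARID1A/B.2.3 and shARID1A/B.4.2. The shRNAs (short hairpin RNAs, which silence a transcript with a matching sequence) were delivered by lentivirus, and the cells of every condition were transduced populations of this one line, not clones. The study used these libraries to find the genes whose expression depends on the BAF complex.

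ARID1A and ARID1B are paralogous subunits that hold together the BAF complex, a form of the SWI/SNF chromatin remodeller, and a given BAF complex carries one or the other. The remodeller uses the energy of ATP to slide or evict nucleosomes, and BAF acts mainly at enhancers. Neuroblastoma arises from the sympathoadrenal lineage of the neural crest. Its cells can take an adrenergic state, driven by factors such as HAND2 and GATA3, or a mesenchymal state, with more matrix, adhesion and motility genes.

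The levels of the 2 silenced genes were examined first, as normalised read counts (reads divided by 1 size factor per library). ARID1A (chromosome 1, 26693236 to 26782110, plus strand, GRCh38) had 6097, 6374 and 6463 in the control libraries and 2169, 2160 and 2109 in those labelled shARID1A.2. ARID1A fell by 1.56 on the log2 scale (SE 0.03, limma adjusted p = 6.5e-24), with no overlap between the groups. ARID1B (chromosome 6, 156776020 to 157210779, plus strand) had 5793, 5804 and 5791 in the control libraries and 2252, 2248 and 2224 in those labelled shARID1A.2. ARID1B thus fell too, by 1.37 (SE 0.02, adjusted p = 9.58e-25), although the label names ARID1A alone. These libraries therefore had low levels of both genes.

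**Figure D1:**
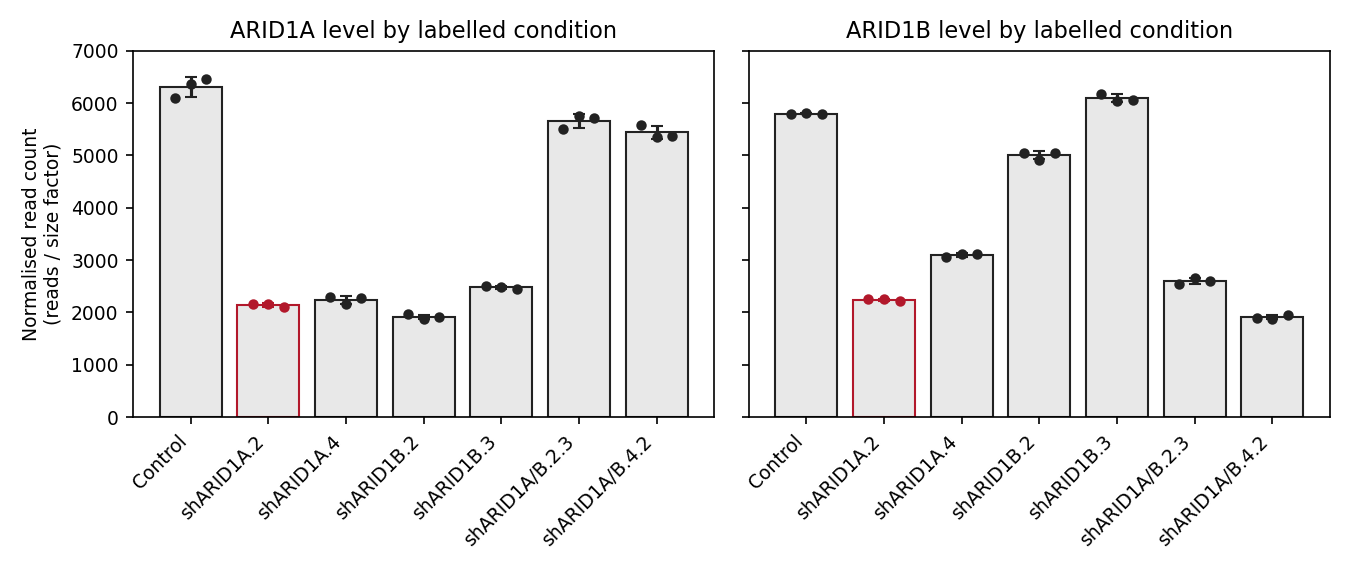
Normalised read counts of ARID1A (left) and ARID1B (right) by labelled condition; points are the 3 libraries, bars their mean and error bars their SD. The libraries labelled shARID1A.2 (red) had 2109 to 2169 for ARID1A and 2224 to 2252 for ARID1B, both under the control libraries.

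Several other labels went against the level of their named gene. ARID1A was low in the libraries labelled shARID1B.2 and shARID1B.3, with means of 1920 and 2479, while their ARID1B means were 5004 and 6091. In those labelled shARID1A/B.2.3 and shARID1A/B.4.2 the ARID1A means were 5659 and 5440 and the ARID1B means 2599 and 1907, so ARID1B alone was far under the control. In those labelled shARID1A.4 both were low, with means of 2243 for ARID1A and 3100 for ARID1B. Conditions are therefore named by their labels below, and a difference between conditions is a difference between the libraries so labelled.

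Sequencing depth and cell identity bear on every result. The libraries labelled shARID1A.2 held 28558500 to 38004732 reads and the controls 30579746 to 34973565, within the 27954334 to 41077638 of the series. All 13 neuroblastoma identity markers were measured. Their summed normalised read count was 179978 to 184482 in the libraries labelled shARID1A.2 and 227806 to 233277 in the control. MYCN, amplified in this line, gave the largest part of this sum in both groups. Fibroblast markers, several of which this line expresses, summed to 20482 to 21905 against 47595 to 48105. Schwann cell markers summed to 1547 to 1692 against 1372 to 1438 with SOX10 at 0 in all 6 libraries, and immune markers to 135 to 160 against 455 to 491, with 7 of 10 under 10 in all 6 libraries. Epithelial and kidney line markers summed to 543 to 575 against 316 to 342. At an adjusted p under 0.05, 37.9% of all genes tested were higher and 38.2% lower, which is the background for the marker counts. Of the markers tested, 4 of 13 neuroblastoma markers were higher and 7 lower, and 2 of 9 fibroblast markers higher and 7 lower. Of 7 Schwann cell markers 2 were higher and 3 lower. All 3 of 3 immune markers were lower, and 3 of 6 epithelial markers were higher and 2 lower. The part of these markers in the results was not tested. In bulk samples, fewer cells of a type and less RNA per cell cannot be told apart.

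Which genes differed from the control was tested with limma on log2 of the normalised read count plus a pseudocount of 1, over 18584 genes. Of these, 7048 (37.9%) were higher and 7094 (38.2%) lower in the libraries labelled shARID1A.2 at an adjusted p under 0.05. With a log2 fold change past 1 as well, 2629 genes (14.1%) were higher and 1989 (10.7%) lower, and these shares are the background for the gene groups, those past 1 for counts past 1 and those at an adjusted p alone for the other counts. At the stricter cutoff of 1.5 and an adjusted p under 0.001, 1188 (6.39%) were higher and 890 (4.79%) lower. The median of all genes was 0.02. The direction of small changes depends on the scaling, because scaling to total reads or to the upper quartile moved that median to 0.19 and 0.20, and moved the share of higher genes among calls past 1 from 56.9% to 67.6% and 68.3%.

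Rises were commoner among weakly expressed genes and among long non-coding RNAs. These groups can overlap, and lncRNAs were not compared with other genes of a like level. Among the 4646 genes with the lowest mean levels 1485 were higher past 1 and 494 lower, whereas among the 4646 with the highest 92 were higher and 492 lower. Of 2762 lncRNAs tested 967 (35.0%) were higher past 1 and 194 (7.02%) lower. Of 14404 protein-coding genes 1423 (9.88%) were higher and 1708 (11.9%) lower. More genes had at least 1 read in the libraries labelled shARID1A.2 (24959 to 25703) than in the control (23507 to 24102), and the part of this in the rises of weakly expressed genes was not tested.

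**Figure D2:**
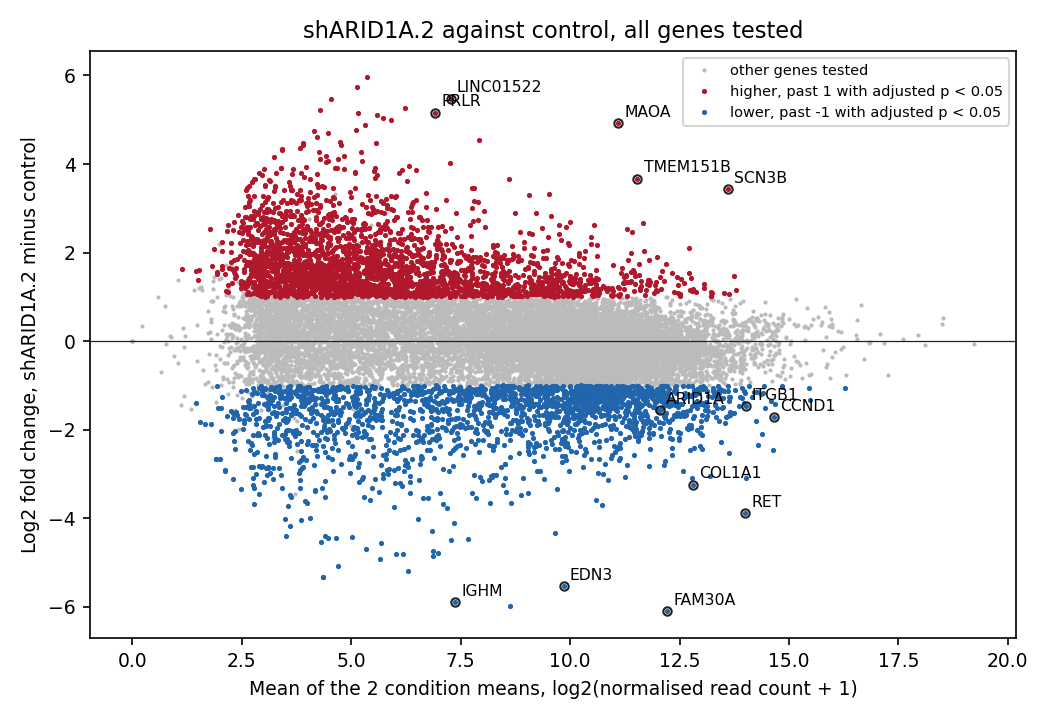
Log2 fold change of the libraries labelled shARID1A.2 minus control against mean level, for 18584 genes; red and blue mark genes past 1 in either direction with an adjusted p under 0.05. Rises concentrate at low levels, while FAM30A, EDN3, RET and COL1A1 fell from high control levels and MAOA, TMEM151B and SCN3B rose to high ones.

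The largest fall was that of FAM30A, a long non-coding RNA (chromosome 14, 105917979 to 105932642, plus strand). It had 8991, 9616 and 9378 normalised read counts in the control and 127, 153 and 126 in the libraries labelled shARID1A.2, 69.1-fold lower (log2 fold change -6.10, SE 0.07, adjusted p = 2e-27). IGHM, the constant region gene of the immunoglobulin mu heavy chain, lies in the same part of chromosome 14 (105851705 to 105856218, minus strand, not overlapping FAM30A). Its values fell from 319, 350 and 305 to 4.15, 3.09 and 6.68 (-5.90, SE 0.22, adjusted p = 5.55e-18). EDN3, which encodes endothelin 3, a peptide ligand needed by neural crest cells, went from 1855, 1751 and 1822 to 40.7, 37.1 and 36.8. That is a 47.4-fold lower mean (-5.53, SE 0.16, adjusted p = 6.56e-20), with all 3 libraries far under all 3 controls.

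IL2RB, the interleukin 2 receptor beta chain, had 415, 365 and 389 in the control and 14.1, 15.4 and 21.2 in the libraries labelled shARID1A.2 (-4.46, SE 0.12). IFITM3, an interferon-induced membrane protein that restricts viral entry, fell from 217, 203 and 257 to 9.14, 5.15 and 6.68 (-4.85, SE 0.23). SCGN, a calcium-binding protein of neuroendocrine cells, fell by 4.78 (SE 0.24). FFAR3, a short-chain fatty acid receptor, fell by 4.74 (SE 0.21), and OLFML1 by 4.48 (SE 0.27). BEGAIN, a partner of postsynaptic scaffolds, fell by 4.34 (SE 0.09) from a control mean of 1539. TMEM108-AS1 fell by 5.98 (SE 0.27). It is an antisense RNA, the strand setting of the counting is not given in the sources used here, and so its reads may not be separable from those of genes on the other strand.

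Among the rises, MAOA stood out by its level. MAOA is the mitochondrial enzyme that degrades noradrenaline and serotonin (X chromosome, 43654907 to 43746824, plus strand). It had 143, 135 and 137 in the control and 4113, 4325 and 4264 in the libraries labelled shARID1A.2, 30.7-fold higher (log2 fold change 4.92, SE 0.06, adjusted p = 7.04e-28). SCN3B, an auxiliary subunit of voltage-gated sodium channels (chromosome 11, 123629187 to 123655244, minus strand), rose from 2098, 2153 and 2065 to 22851, 22440 and 22763. The groups were 10.8-fold apart (3.43, SE 0.04, adjusted p = 3.91e-28). TMEM151B, a membrane protein, rose from 404, 429 and 464 to 5555, 5516 and 5472 (3.67, SE 0.05).

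Other rises started from a low level in the control. PRLR, the prolactin receptor, had 5.87, 3.36 and 8.22 in the control and 212, 262 and 226 in the libraries labelled shARID1A.2 (5.16, SE 0.31). The 3 libraries lay far above the 3 controls. The lncRNA LINC01522 rose by 5.48 (SE 0.27) and the microRNA host gene MIR7-3HG by 4.03 (SE 0.41). SPOCK2, a secreted matrix proteoglycan, rose by 3.67 (SE 0.12) and ZMAT1, a zinc finger protein, by 3.47 (SE 0.13). The genes with the largest changes were chosen among those with a mean of at least 200 and no overlap between the groups.

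A few genes were read in 1 group only. No read was counted in the 3 controls and at least 10 in each library labelled shARID1A.2 for 8 genes. These were led by HTR1D, a serotonin receptor, with 39, 51 and 43 recovered reads, and included CALB2, the calcium-binding protein calretinin (27, 19 and 14). The reverse held for 4 genes, among them CDX1, a homeobox factor of gut development, with 33, 36 and 37 reads in the control, and PTPN7, a phosphatase of blood cells, with 36, 32 and 38. These genes were picked by their reads, so no test is given.

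Genes of the S phase list were lower as a group. It holds 43 genes, many of them of replication and nucleotide supply. At an adjusted p under 0.05, 43 of 43 were lower, 22 of them past 1, with a median of -1.01 beside 0.02 over all genes. CCNE2, a cyclin that opens S phase with CDK2, fell from 1219, 1161 and 1142 to 226, 201 and 227 (-2.43, SE 0.07, adjusted p = 4.29e-20). CLSPN, the checkpoint mediator claspin, fell by 2.15 (SE 0.06). TYMS, thymidylate synthase, fell from 3410, 3410 and 3360 to 851, 839 and 874 (-1.99, SE 0.04). CDC6, which loads the replicative helicase, fell by 1.84 (SE 0.04), and the helicase subunits MCM4 and MCM7 by 1.39 (SE 0.02) and 0.54 (SE 0.02).

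Genes of the G2/M list, many of which act in mitosis, were lower in 53 of 54 cases, 21 of them past 1, with a median of -0.92. With upper-quartile scaling 52 were lower and 8 of them past 1. TUBB4B, a beta tubulin, fell from 13636, 13415 and 13883 to 4203, 4163 and 4272 (-1.70, SE 0.03). MKI67, the proliferation antigen Ki-67, fell from 28866, 29256 and 28988 to 12729, 12969 and 12571 (-1.19, SE 0.03, adjusted p = 2.71e-22). CDK1, the kinase that drives mitosis, fell by 1.18 (SE 0.03), and CENPF, a kinetochore protein, by 1.15 (SE 0.02). CKS2, a small CDK-binding protein, had 2537, 2402 and 2642 in the control and 2430, 2373 and 2395 in the libraries labelled shARID1A.2, with overlapping groups (-0.07, SE 0.05, adjusted p = 0.204).

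The promoters of both lists are shown because their members fell together. Factors of the E2F family activate many S phase genes, and the cell cycle homology region (CHR) is a motif in promoters of mitotic genes bound by the DREAM and MuvB complexes. RefSeq promoters (GRCh38.p14) were found for 33 of 43 S phase and 45 of 54 G2/M genes. The 250 bases before each gene start were searched on both strands for the E2F letters TTTCGCGC, TTTGGCGC or TTTCCCGC and for the CHR letters TTTGAA. E2F letters were in 16 of 47 S phase windows (34.0%), 3 of 58 G2/M windows (5.17%) and 2.32% of 35116 windows of all genes. CHR letters were in 3 S phase windows (6.38%), 28 G2/M windows (48.3%) and 13.3% of all. The letters CCAAT were in 63.8%, 65.5% and 32.0%. These shares come from list membership alone and not from the values of these libraries. A gene with several starts gave several windows. A match is a description of letters and not a binding site, and its part in the falls was not tested.

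The 150 bases before the gene start are printed for 2 S phase genes, with E2F letters in capitals, and for 3 G2/M genes, with CHR letters in capitals. They were taken from genes with 1 RefSeq start, letters in these bases and no annotated transcript of the gene over them. MCM6, a helicase subunit, lies at chr2:135876444-135876593 (minus strand), and POLA1, the catalytic subunit of DNA polymerase alpha, at chrX:24693768-24693917 (plus strand). MKI67 lies at chr10:128126424-128126573 (minus strand), KIF11, a spindle motor, at chr10:92592980-92593129 (plus strand), and CKS2 at chr9:89311045-89311194 (plus strand).
MCM6: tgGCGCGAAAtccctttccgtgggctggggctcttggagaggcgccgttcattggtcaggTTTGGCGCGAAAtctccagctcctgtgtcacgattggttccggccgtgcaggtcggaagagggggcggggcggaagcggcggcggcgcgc
POLA1: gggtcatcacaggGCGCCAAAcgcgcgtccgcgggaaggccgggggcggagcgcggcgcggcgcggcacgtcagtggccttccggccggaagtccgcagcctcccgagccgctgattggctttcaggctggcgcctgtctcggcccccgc
MKI67: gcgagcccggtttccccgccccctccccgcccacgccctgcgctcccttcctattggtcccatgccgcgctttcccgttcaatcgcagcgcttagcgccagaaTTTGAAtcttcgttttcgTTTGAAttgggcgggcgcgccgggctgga
KIF11: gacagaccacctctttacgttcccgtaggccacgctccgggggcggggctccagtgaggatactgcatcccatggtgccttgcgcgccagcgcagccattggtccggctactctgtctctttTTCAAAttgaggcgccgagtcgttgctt
CKS2: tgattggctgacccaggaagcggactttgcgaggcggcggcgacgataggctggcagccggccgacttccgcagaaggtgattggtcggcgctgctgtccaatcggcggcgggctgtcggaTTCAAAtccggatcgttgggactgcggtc
MCM6 had 3 matches, 2 of them overlapping on opposite strands, and fell from 8573, 8362 and 8542 to 2749, 2752 and 2777 (-1.62, SE 0.03). POLA1 fell by 0.64 (SE 0.03) and KIF11 by 0.91 (SE 0.03). CKS2 also held CHR letters, at 29 bases before its start, and was the only G2/M gene that did not pass the test.

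Regulators of G1 were mostly lower, with 16 of 21 lower and 4 higher. CCND1, cyclin D1, fell from 39766, 39681 and 39770 to 12208, 12057 and 12111, 3.28-fold lower (-1.71, SE 0.03, adjusted p = 1.18e-24). Its partner kinase CDK6 fell from 19136, 18093 and 18310 to 3714, 3906 and 3860 (-2.27, SE 0.07), whereas CDK4 fell by 0.47 (SE 0.02). CCNE1, the other E-type cyclin, rose from 346, 368 and 360 to 1037, 970 and 949 (1.46, SE 0.08), against the fall of CCNE2. E2F5, a repressor-type E2F, rose by 0.89 (SE 0.04). Of 7 CDK inhibitors 4 were lower and 3 higher. CDKN1A, which encodes p21, fell from 139, 135 and 164 to 32.4, 30.9 and 42.3 (-2.03, SE 0.14), and CDKN1B, which encodes p27, rose by 0.17 (SE 0.03).

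Adhesion receptors came next. Integrins are the heterodimeric receptors that bind cells to matrix, and 15 of 21 tested were lower, 12 of them past 1, with 2 higher and a median of -1.15. ITGB1, the beta chain shared by most integrins, fell from 24712, 23850 and 24032 to 8571, 9124 and 8667 (-1.46, SE 0.03, adjusted p = 1.86e-24). ITGAV, the alpha chain of the vitronectin receptors, fell from 9692, 9164 and 9298 to 2173, 2319 and 2231 (-2.07, SE 0.04). ITGB3, which pairs with ITGAV, fell by 3.14 (SE 0.21) from 179, 167 and 158 to 24.9, 16.5 and 14.5. ITGA5, of the fibronectin receptor, fell by 2.38 (SE 0.13) and ITGA9 by 1.84 (SE 0.08). ITGB5 rose by 0.36 (SE 0.03) and ITGB4 by 0.95 (SE 0.23), the latter from a mean of 19.7.

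Of 16 cadherins, which join cells to one another, 7 were lower and 5 higher, near the all-gene shares of 38.2% and 37.9%. Past 1, 5 of the 16 were lower and 4 higher, beside 10.7% and 14.1% of all genes. CDH2, N-cadherin, fell from 16973, 16874 and 16707 to 4659, 5035 and 4872 (-1.80, SE 0.03, adjusted p = 1.06e-25). CDH11, a mesenchymal cadherin, fell by 1.3 (SE 0.06) and CDH24 by 1.19 (SE 0.04). CDH7 rose from 17.6, 2.24 and 13.3 to 141, 163 and 137 (3.95, SE 0.36), CDH12 by 3.24 (SE 0.25) and CDH18 by 1.25 (SE 0.06). The list's median was -0.18, became -0.98 over members with at least 10 reads in every library, and turned to 0.04 without shARID1A.2 replicate 2.

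Matrix proteins were more divided. Of 33 collagens and laminins 19 were lower (11 past 1) and 7 higher, with a median of -0.51. COL1A1, of type I collagen, fell from 12727, 13040 and 13019 to 1317, 1411 and 1363, 9.48-fold lower (-3.24, SE 0.05). COL6A3 fell by 3.60 (SE 0.09), COL13A1, a transmembrane collagen, by 3.77 (SE 0.12) and LAMC1, a laminin chain of most basement membranes, by 1.28 (SE 0.02). COL5A2 rose by 1.33 (SE 0.09). Of 29 matrix ligands and remodelling enzymes 18 were lower and 8 higher. LOXL2, which crosslinks collagen, fell from 3880, 3780 and 3812 to 587, 608 and 577 (-2.69, SE 0.06) and TIMP3, an inhibitor of metalloproteinases, by 2.78 (SE 0.09). SPARC, a matricellular protein, rose by 0.46 (SE 0.04). The summed fibroblast markers were lower in the same libraries, but they include COL1A1 and COL6A3, so that sum is not a separate observation.

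Inside the cell, the proteins that tie integrins to actin were lower in 24 of 28 cases, 13 of them past 1 (7 with upper-quartile scaling), and higher in 2, with a median of -1.0. TNS3 and TNS1, tensins that link integrins to actin, fell by 3.47 (SE 0.10) and 2.09 (SE 0.03). ILK, a scaffold at integrin tails, fell from 3081, 3225 and 3179 to 1386, 1494 and 1450 (-1.13, SE 0.04). FLNA, filamin A, fell by 1.04 (SE 0.03) and TAGLN, the actin-binding transgelin, by 1.67 (SE 0.10). VIM, the intermediate filament vimentin, rose from 55410, 52944 and 54293 to 69666, 67321 and 69227 (0.34, SE 0.04).

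Regulators of the mesenchymal state were lower in 21 of 27 cases (12 past 1) and higher in 4, with a median of -0.74. NOTCH3, a Notch receptor, fell from 3219, 3478 and 3456 to 590, 511 and 602 (-2.58, SE 0.07), NOTCH2 by 1.51 (SE 0.02), and RBPJ, the DNA-binding factor of the Notch pathway, from 5947, 5740 and 5853 to 1257, 1333 and 1284 (-2.18, SE 0.03). AXL, a receptor kinase, fell by 2.45 (SE 0.09) and SNAI2, the repressor Slug, by 1.85 (SE 0.10). Of 12 targets of the Hippo pathway, 8 were lower and 1 higher. ANKRD1 fell by 2.29 (SE 0.13) and CCN2, a matricellular protein, by 1.93 (SE 0.14). Of 15 genes that the study names, 15 were lower and 10 of these past 1, but they were chosen by the study on these samples, so their direction is not independent evidence. With upper-quartile scaling 13 of the 15 were lower and 1 higher.

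Adrenergic core factors did not move as one, with 14 of 22 lower (5 past 1) and 8 higher. HAND2 fell from 19025, 19481 and 19187 to 5911, 5778 and 6075 (-1.70, SE 0.03, adjusted p = 3.53e-24). ISL1, a LIM homeobox factor, fell by 1.22 (SE 0.03). HAND1 rose by 0.66 (SE 0.03) and GATA3 by 0.42 (SE 0.03). MYCN, the amplified oncogene of this line, had 120355, 123481 and 124192 in the control and 94497, 90242 and 95144 in the libraries labelled shARID1A.2 (-0.40, SE 0.03, adjusted p = 6.43e-12).

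Of 17 genes of catecholamine synthesis and storage, 9 were lower (7 past 1) and 6 higher (3 past 1). DBH, which makes noradrenaline from dopamine, fell from 476, 591 and 520 to 107, 123 and 111 (-2.20, SE 0.09). The transmitter peptide NPY fell by 2.36 (SE 0.05), the granule protein VGF by 2.05 (SE 0.07) and SCG2 by 1.02 (SE 0.02). SLC6A2, the noradrenaline transporter, rose from 8184, 8232 and 8241 to 16895, 17188 and 17225 (1.06, SE 0.03). Together with the rise of MAOA, a synthetic enzyme was thus lower and an uptake carrier and a degrading enzyme were higher.

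Signalling genes held some of the largest falls. RET, the receptor kinase for ligands of the GDNF family, had 29923, 31384 and 30687 in the control and 2049, 2076 and 2071 in the libraries labelled shARID1A.2, 14.8-fold lower (-3.89, SE 0.03, adjusted p = 3.79e-32). GFRA1, its co-receptor for GDNF, rose from 155, 156 and 130 to 573, 613 and 523 (1.95, SE 0.10). Of 30 receptor kinases and ligands 16 were lower and 8 higher, but 13 and 12 with upper-quartile scaling. The growth factors HGF and IGF2 fell by 3.11 (SE 0.10) and 3.08 (SE 0.14), and IGF1R, the IGF receptor, by 1.55 (SE 0.03). ERBB2 rose by 1.80 (SE 0.08). Of 7 endothelins, receptors and converting enzymes, 6 were lower and 1 higher, with a median of -3.02 (-1.45 over those with at least 10 reads in every library). ECE1, which activates endothelins, fell by 1.45 (SE 0.03).

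Of 25 genes of TGF-beta and BMP signalling, 17 were lower and 6 higher. TGFBI, a matrix protein induced by TGF-beta, fell from 7866, 7911 and 8069 to 1075, 1256 and 1117 (-2.79, SE 0.06), and the receptor TGFBR2 by 2.25 (SE 0.10). ID3, a target of BMP signals, rose by 1.04 (SE 0.07). Of 29 WNT genes 13 were lower and 8 higher, beside 38.2% and 37.9% of all genes. The transcription factor TCF7 fell from 179, 175 and 165 to 9.97, 8.24 and 11.1 (-4.02, SE 0.12), the inhibitor DKK1 by 1.76 (SE 0.03) and LGR5, a receptor that amplifies WNT signals, by 1.44 (SE 0.03), while the receptor FZD8 rose by 2.18 (SE 0.15). Of 18 Notch genes 9 were lower and 4 higher, with the non-canonical ligand DLK1 down by 2.43 (SE 0.06). The medians of WNT (-0.14) and Notch (-0.10) turned positive with upper-quartile scaling (0.04 and 0.09), with 11 lower and 10 higher for WNT and 8 and 8 for Notch.

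Stress and survival genes gave mixed directions, as did all genes, with 38.2% lower and 37.9% higher. Of 27 genes of the ATF4 response, which serves amino acid shortage and unfolded proteins, 15 were lower and 7 higher, but 11 and 11 with upper-quartile scaling. PSAT1, of serine synthesis, fell from 8902, 8905 and 8769 to 2759, 2682 and 2819 (-1.69, SE 0.03) and MTHFD2, of mitochondrial folate metabolism, by 1.45 (SE 0.02). SESN2 and DDIT4, inhibitors of mTORC1, rose by 2.36 (SE 0.04) and 2.10 (SE 0.03). Of 20 p53 target genes 11 were lower and 6 higher, or 10 and 8 with upper-quartile scaling. PMAIP1, which encodes the pro-apoptotic NOXA, fell by 2.78 (SE 0.07), and BTG2, an antiproliferative factor, rose by 1.81 (SE 0.04). BCL2, the anti-apoptotic founder of its family, fell from 6216, 6116 and 6144 to 1512, 1417 and 1428 (-2.08, SE 0.03), and MCL1 by 0.34 (SE 0.02). Of 14 BCL2 family members 7 were lower and 6 higher, and the median of -0.07 became 0.11 with upper-quartile scaling.

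Interferon-stimulated genes were lower in 10 of 21 cases and higher in 8, near the all-gene shares of 38.2% and 37.9%. With upper-quartile scaling these were 8 and 8. Past 1, 7 of the 21 were lower and 5 higher, beside 10.7% and 14.1% of all genes. OAS3, a sensor of double-stranded RNA, fell from 1506, 1509 and 1557 to 138, 161 and 151 (-3.34, SE 0.05), and OAS1, of the same family, fell by 2.54 (SE 0.15). IFIT1, which binds foreign RNA, rose by 2.09 (SE 0.20) from a mean of 22.4. Of 29 cholesterol and fatty acid genes 19 were lower and 7 higher, or 14 and 10 with upper-quartile scaling. INSIG1, which holds the sterol sensor in the endoplasmic reticulum, fell by 1.56 (SE 0.03), and the sterol exporters ABCA1 and ABCG1 rose by 2.58 (SE 0.17) and 1.87 (SE 0.09).

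Of 31 synaptic and neurite genes 15 were higher and 12 lower, with a median of 0.12, near the all-gene shares of 37.9% and 38.2%, and with upper-quartile scaling 19 were higher and 10 lower. DLG4, the postsynaptic scaffold PSD-95, rose from 492, 500 and 534 to 2333, 2316 and 2372 (2.20, SE 0.05), and the neurofilament NEFM by 1.18 (SE 0.02) and MAPT, the microtubule protein tau, by 1.19 (SE 0.05). DCX, doublecortin of migrating neurons, fell from 5392, 5284 and 5246 to 1396, 1570 and 1551 (-1.82, SE 0.05), ELAVL2 by 1.58 (SE 0.06) and STMN2, a microtubule regulator of growth cones, by 1.28 (SE 0.03). Ion channels and transmitter receptors were higher in 17 of 31 cases, 7 past 1, and lower in 7, with a median of 0.38. Of 32 axon guidance genes 18 were lower and 11 higher, or 15 and 13 with upper-quartile scaling, with the semaphorin receptor PLXNA4 down by 1.96 (SE 0.07) and the Slit receptor ROBO2 up by 2.27 (SE 0.09).

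Chromatin genes changed little outside a few members. Of 23 BAF and shared SWI/SNF subunits 11 were lower and 7 higher, beside 38.2% and 37.9% of all genes, with a median of -0.16. With upper-quartile scaling 9 were lower and 10 higher and the median was 0.02. Besides ARID1A and ARID1B only DPF1, a neuronal PHD finger subunit, was lower past 1, at 540, 535 and 557 in the control and 266, 266 and 259 in the libraries labelled shARID1A.2 (-1.04, SE 0.07). The core subunit SMARCC1 fell by 0.69 (SE 0.02) and DPF2 by 0.74 (SE 0.03), while BCL7A rose by 0.82 (SE 0.02). The ATPase SMARCA4 had 16837, 17173 and 17140 against 17262, 16283 and 17020, with overlapping groups (-0.02, SE 0.02, adjusted p = 0.546), but was called higher, by 0.15 and 0.17, with scaling to total reads and the upper quartile.
Of 7 PBAF and ncBAF subunits, PBRM1, the defining bromodomain subunit of PBAF, fell from 3778, 3808 and 3673 to 1168, 1256 and 1173 (-1.65, SE 0.03), the only one past 1. In all 6 were lower and 1 higher at an adjusted p under 0.05, with a median of -0.16, whereas with upper-quartile scaling 2 were lower and 3 higher and the median was 0.02. BRD7, of PBAF, was lower by 0.16 (SE 0.03), a direction that was lost with scaling to total reads or the upper quartile. Of 26 polycomb and COMPASS genes 15 were lower and 9 higher, but 11 and 11 with upper-quartile scaling. Among them, EED, a core subunit of PRC2, fell by 1.27 (SE 0.04), BMI1, of PRC1, fell by 1.21 (SE 0.03), and the H3K27 demethylase KDM6B rose by 1.56 (SE 0.04).

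Histones and ribosomal proteins went the other way. Of 12 replication-dependent histone genes 11 were higher, 9 past 1, with a median of 1.57. H2AC6 rose from 34.1, 35.8 and 36 to 401, 403 and 382 (3.45, SE 0.12) and H2BC5 by 1.76 (SE 0.13). These transcripts mostly lack a poly(A) tail, the libraries were made from polyadenylated RNA, and near-identical gene copies can share reads, so the values are for the polyadenylated part and uncertain between copies. Of 30 cytosolic ribosomal proteins 27 were higher and 3 did not pass, with a median of 0.37, as against 0.55 and 30 higher with upper-quartile scaling. RPL15, which rose most, went from 11082, 10811 and 11055 to 20524, 20191 and 20800 (0.90, SE 0.03). Of 13 transcripts of the mitochondrial genome 4 were lower and 3 higher, between -0.68 and 0.16, with a median of -0.05. With upper-quartile scaling 1 was lower and 10 higher, and the median was 0.14.

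The libraries labelled shARID1A.2 were then compared directly with the 5 other silenced conditions, with no control libraries in the contrast. Against shARID1A.4, which carries the same target in its label, 2665 genes (14.3%) were higher past 1 and 1777 (9.56%) lower. Against shARID1B.2, 961 (5.17%) were higher and 931 (5.01%) lower. Against shARID1A/B.4.2, 438 (2.36%) were higher and 516 (2.78%) lower. Against shARID1B.3, 2428 (13.1%) were higher and 1606 (8.64%) lower, and against shARID1A/B.2.3, the other combination, 2885 (15.5%) were higher and 2096 (11.3%) lower. Calls were thus fewest against one condition labelled as a combination and most against the other. All 5 contrasts share the libraries labelled shARID1A.2.

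The cell cycle lists were close between shARID1A.2 and shARID1A.4, with a median difference of 0.02 over the S phase genes and 0.19 over the G2/M genes, and 2 and 1 members higher past 1 and 2 and 1 lower. Against shARID1B.2 the S phase median was -0.44, with 4 members lower past 1, and against shARID1A/B.4.2 it was -0.16. The S phase and G2/M medians were -0.96 and -0.76 against shARID1B.3, and 0.12 and 0.29 against shARID1A/B.2.3. The ATF4 genes set shARID1A.2 apart from shARID1A.4, with 23 of 27 lower past 1 and a median of -2.0. Their median was also -1.28 against shARID1B.3 and -1.59 against shARID1A/B.2.3. It was only -0.09 against shARID1B.2 and 0.02 against shARID1A/B.4.2. Hippo targets differed from shARID1A.4 the other way, with 7 of 12 higher past 1 and a median of 1.15. The Hippo median was also above 0 against shARID1B.3 (0.61). It was below 0 against shARID1B.2 (-0.67), shARID1A/B.2.3 (-0.28) and shARID1A/B.4.2 (-0.54). Against the control the ATF4 and Hippo medians were both below 0 (-0.20 and -0.69). The histone genes were higher in shARID1A.2 than in shARID1A.4 too, with 8 of 12 past 1 and a median of 1.61, beside 0.33 against shARID1B.2 and 0.59 against shARID1A/B.4.2. For the endothelin genes the medians were -0.95, -1.88 and -0.17 in the same order of conditions, and for the focal adhesion genes -0.35, -0.35 and -0.49.

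**Figure D3:**
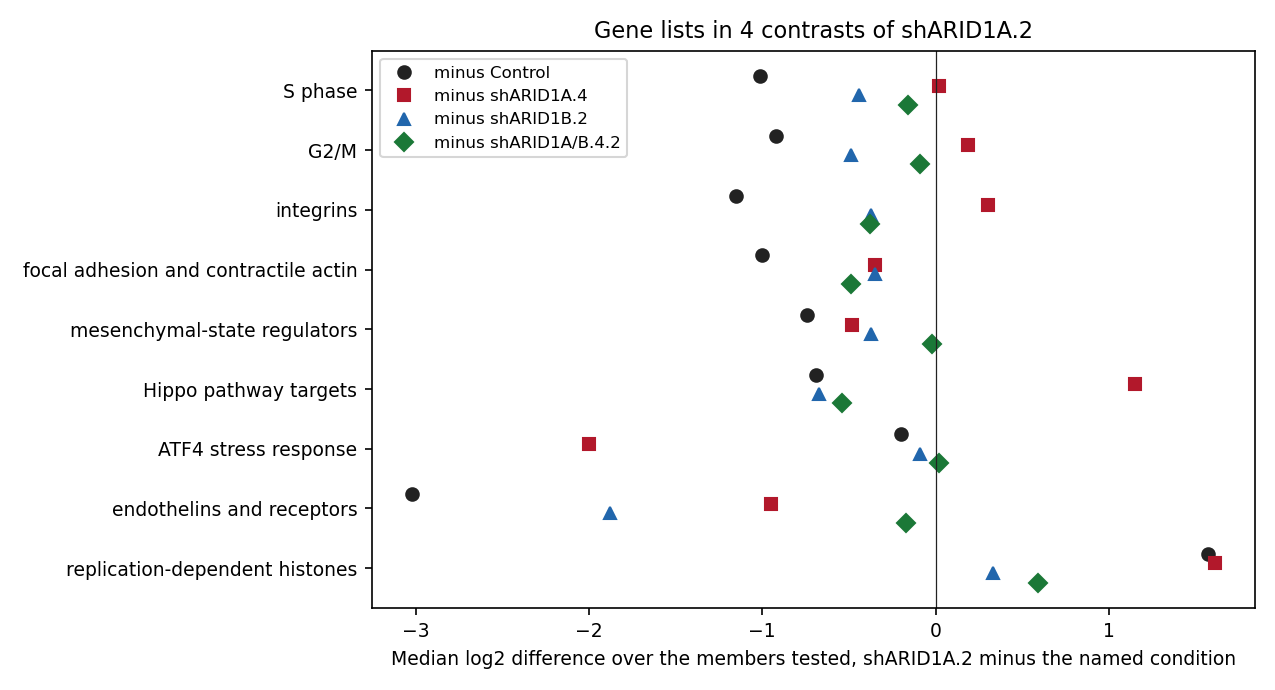
Median log2 difference over the members tested of 9 gene lists, for the libraries labelled shARID1A.2 minus control, minus shARID1A.4, minus shARID1B.2 and minus shARID1A/B.4.2. Against shARID1A.4 the ATF4 list lies at -2.0 and the histone and Hippo lists at 1.61 and 1.15, while the S phase list differs from it by 0.02 and from control by -1.01.

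Single genes differed by far more. Against shARID1A.4 the largest differences were lower levels of IGF2, with a mean of 75.8 against 6106 (-6.31, SE 0.14), of GDF15, a stress-induced cytokine, with 3.44 against 280 (-6.03, SE 0.40), and of HMOX1, the haem-degrading enzyme, with 47.2 against 1941 (-5.35, SE 0.11). CXADR, an adhesion protein of epithelial junctions, was higher at 1508 against 63.6 (4.55, SE 0.07). MYCN also differed, at 93294 against 418088 (-2.16), with the control libraries between these means and far nearer to that of shARID1A.2. Against shARID1B.2 the largest differences included lower IFITM3 (6.99 against 207, -4.73), COL1A1 (1364 against 12778, -3.23) and SAMSN1, an adaptor of immune cells (-2.81), and higher KIAA0040 (3.08) and MIR7-3HG (2.81). Against shARID1A/B.4.2, DLK1 was lower (668 against 3856, -2.53), as was CIAO2B, of cytosolic iron-sulphur assembly (258 against 1391, -2.42), and SPOCK2 was higher (720 against 88.6, 3.02), as were PRLR (2.94), the Hedgehog effector GLI1 (2.23) and SIX2, a homeobox factor (2.13).

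Some genes lay apart in shARID1A.2 from every other condition. At an adjusted p under 0.05 in each of the 6 contrasts, 1191 genes (6.41%) were higher and 1322 (7.11%) lower. Those with the largest smallest difference upward included PRLR, MAOA, LINC01522 and ZMAT1. MAOA had a mean of 4234 in shARID1A.2, and the next condition was shARID1A/B.4.2 with 1348, a difference of 1.65 on the log2 scale. PRLR had a mean of 70.0 in shARID1B.2, the next condition (1.72). Downward the genes were BEGAIN, IL2RB, LOXHD1 (a protein of hair cell stereocilia), FAM30A and METRNL, a secreted factor. BEGAIN had 75.3 and the next lowest condition 324 (-2.09). Of the lists, focal adhesion and contractile actin had 13 of 28 members lower than in all 6 conditions and S phase 10 of 43.

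**Figure D4:**
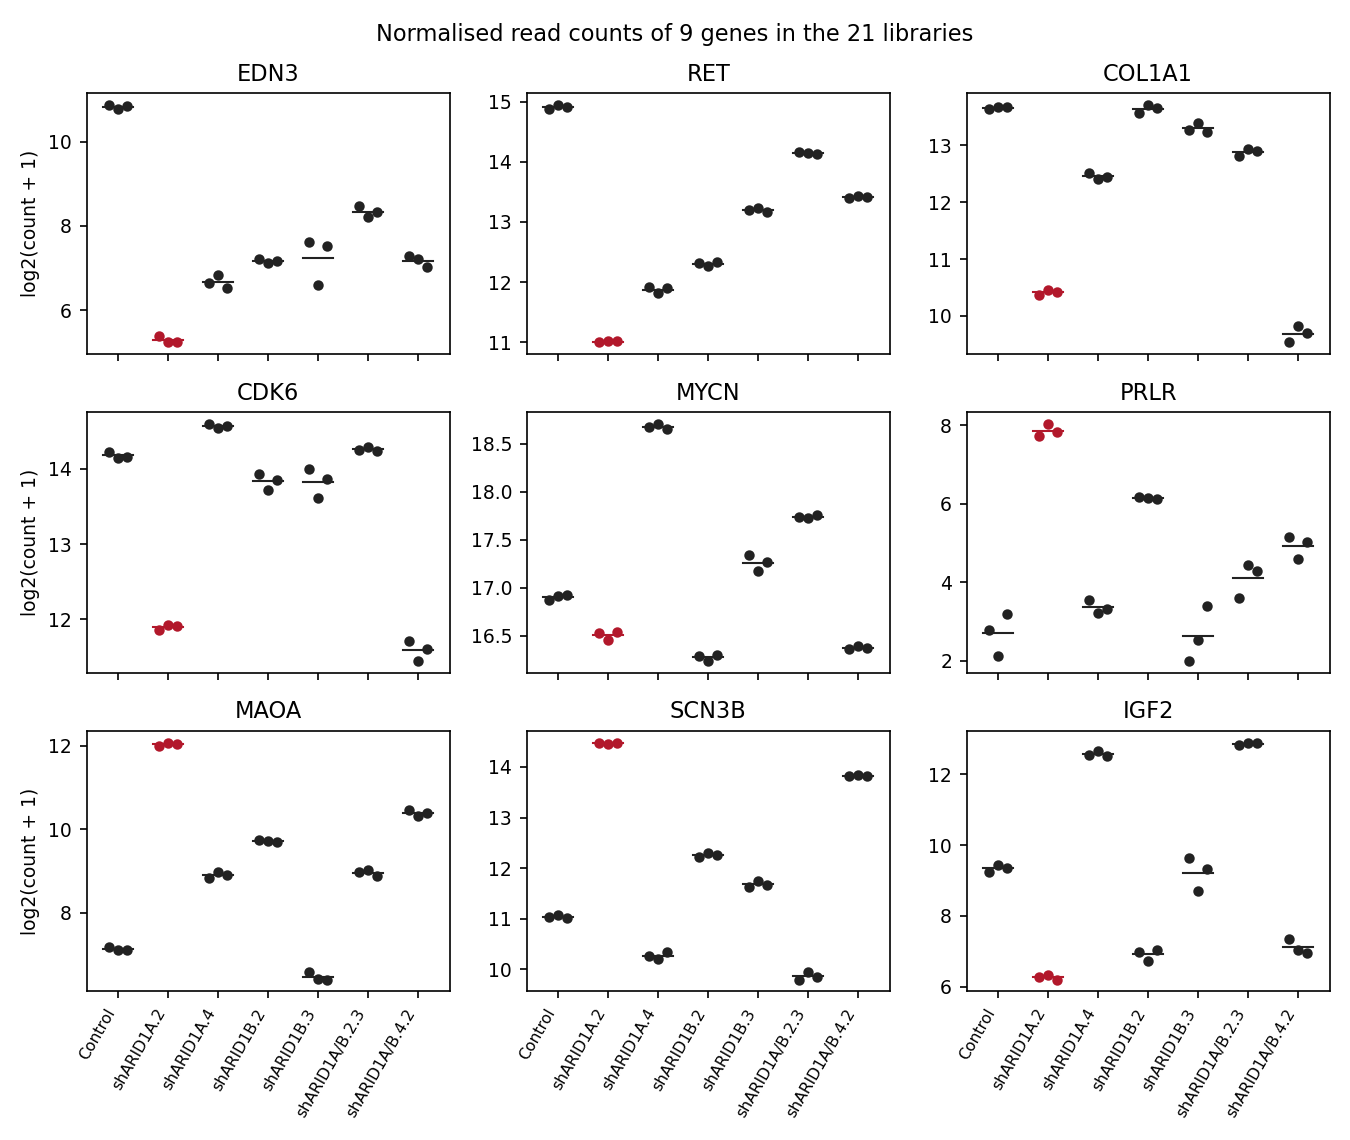
Log2 of the normalised read count plus 1 of 9 genes in the 21 libraries; points are libraries, lines are means of the 3 libraries of a condition, and red marks shARID1A.2. EDN3 and RET are lowest and PRLR, MAOA and SCN3B highest in shARID1A.2, while COL1A1 and CDK6 are lower still in shARID1A/B.4.2 and MYCN is highest in shARID1A.4.

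RET and EDN3 were lowest in the libraries labelled shARID1A.2. The mean of RET was 2065 there, 3766 in shARID1A.4 and 5063 in shARID1B.2, and 10912 in shARID1A/B.4.2. EDN3 had 38.2 in shARID1A.2 and 101 in shARID1A.4, the condition next to it. CDK6 was low in 2 conditions only, with 3827 in shARID1A.2 and 3094 in shARID1A/B.4.2, against 14549 to 24256 in the other silenced conditions and 18513 in the control. COL1A1 was lowest in the same 2 conditions, with 1364 in shARID1A.2 and 827 in shARID1A/B.4.2. The other silenced conditions had 5627 to 12778, and the lower end of this range was also far under the control libraries. SCN3B had 22684 in shARID1A.2, 14533 in shARID1A/B.4.2 and 931 to 4900 in the other silenced conditions.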

How the data were processed

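RNA of SK-N-BE(2) cells was made into polyadenylated, stranded libraries by the authors. The submitters' processing notes name STAR 2.5.3a, RSEM 1.3.0, DESeq2 1.26.0 and GRCh38, with no role or annotation given. For 60728 genes the authors deposited a normalised signal in each library, which is a count divided by a size factor (0.841 to 1.29), and whole reads were recovered for 100% of values (largest deviation 0.012 read, tolerance 0.1). As RSEM is named, these may be rounded estimates. Columns were matched to libraries by name, with 0 unmatched. The 3 deposited tables of the authors' comparisons hold fold changes and p-values and were not used. Gene identifiers were matched to GENCODE release 29 without version (58541 of them) for coordinates.

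Limma 3.58.1 with a mean-variance trend (R 4.3.3) was fitted to log2(value + 1) over all 21 libraries in 7 conditions (14 residual degrees of freedom), for the 18584 genes that passed filterByExpr of edgeR on recovered reads. P-values were two-sided and Benjamini-Hochberg adjusted over these genes. Fold changes are on the log2(value + 1) scale, which understates low genes. Replicate libraries were further apart than sampling noise (chi-square per degree of freedom 1.55 to 4.26). Their replicates are described as biological, but nothing says more of their origin, so p-values measure the spread between these libraries. Named genes were the 10 largest falls and rises with a mean of at least 200 and separate groups, the most changed and most expressed members of each of 38 lists, any other list member whose role called for it, and the 5 largest differences of each direct contrast. Members and lists were chosen with earlier results of these data known. Alternatives were edgeR 4.0.16, DESeq2 1.42.0, other scalings, pseudocounts and filters, and each library left out. The tests were checked on simulated data. Figures were made with Python 3.11.15 and matplotlib 3.10.9. Some genes are not reported here.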

Additional observations from a re-analysis of the deposited data

Results flagged for a closer look

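Genes on which the libraries labelled shARID1A.2 and shARID1A.4 lay on opposite sides of the control, past 1 in each direction, drew attention because the 2 conditions carry the same target in their label. The genes were chosen for these opposite sides, which fixes a difference between the conditions, so the differences are given as values with no test. There were 117 such genes higher in shARID1A.2 and lower in shARID1A.4, and 64 the other way. The first were led by CXADR (a log2 difference, shARID1A.2 minus shARID1A.4, of 4.55), KIAA0040 (4.50), KY, a muscle protease (4.28), and the lncRNA PCAT14 (4.03). The second were led by IGF2 (-6.31), GDF15 (-6.03), HMOX1 (-5.35) and CPLX3, a complexin of synapses (-5.28). IGF2 was 3.08 lower than control in shARID1A.2 and 3.23 higher in shARID1A.4, and CXADR 1.28 higher and 3.27 lower. The level of ARID1B also differed between the 2 conditions (2224 to 2252 against a mean of 3100), and its part in these differences was not tested.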

How the results depend on the processing

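Of the counts of genes called, 146 of 152 values under other settings stayed within 1.5 times the main value. The 6 that did not all came from requiring at least 10 reads in every library, which left 14637 genes. Higher genes against control were then 1261 past 1 and 448 past 1.5, those against shARID1A.4 1462, against shARID1B.2 375 and against shARID1A/B.4.2 158, and lower genes against shARID1A/B.4.2 274. Leaving out 1 library at a time gave 2546 to 2617 higher and 1961 to 1983 lower genes past 1 against control, and 1037 to 1053 higher and 1227 to 1263 lower genes apart from all conditions. The replicate numbers did not pair the libraries, since deviations of same-numbered libraries correlated at 0.012, -0.029 and -0.037. With the replicate number as a block 2626 genes were higher and 1989 lower past 1. edgeR with TMM gave 2730 and 1951, and DESeq2 2561 and 1955. Of the genes named, BRD7 turned to 0.01 with scaling to total reads and 0.02 with upper-quartile scaling, and BRD9 (-0.08) to 0.09 and 0.10, its call also being lost with TMM, edgeR, DESeq2 and 3 of the omissions. TUBB3 (0.01, not called) was called higher at 0.18 and 0.19 with these 2 scalings. SMARCA4 (-0.02, not called) was called higher at 0.15 and 0.17, and CKS2 (-0.07, not called) turned to 0.10 and 0.11 without a call. Without 1 library, SMARCA4 and TUBB3 changed sign within 0.01 of 0, uncalled. The other named genes that were tested under these settings kept their direction and call against control. The genes apart from all conditions need every library and were not computed on the 6 libraries alone. At 3 libraries a group, low genes have the widest errors.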
